A study of Bos taurus with 6 samples.

Results

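Members of the poly(ADP-ribose) polymerase (PARP) family and DTX3L were followed in bovine cumulus cells, which enclose the oocyte in the follicle, cultured with or without recombinant follicle-stimulating hormone (rFSH). The family members considered were PARP1, PARP2, PARP3, PARP4, PARP6, PARP8, PARP9, PARP12, PARP14 and DTX3L, 10 genes in all. They were chosen by their rFSH over control ratios in these same arrays, so the ratios below describe the members and are not independent evidence that they respond. Every probe whose annotated symbol was one of these names was taken, which gave 9 of 43794 bovine probes, for 8 of 15216 named genes. DTX3L had 2 probes and the other 7 genes had 1 each, while PARP2 and PARP3 were not analysed here.

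Cumulus-oocyte complexes from Holstein ovaries were matured in vitro with 0.5 µg/mL rFSH, or without it as the control, and the medium of both groups contained 1 µg/mL estradiol. The 3 biological replicates, numbered 2, 3 and 4, were each measured on a pair of two-colour arrays that differed in which dye marked which treatment, giving 6 arrays in all. Culture lasted 22 to 24 h in the described protocol, yet the control is labelled 6 h, so an effect of rFSH and one of time cannot be told apart. The number of arrays limits the precision of every value.

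PARPs transfer ADP-ribose from NAD to proteins. PARP1 and PARP2 build chains of it at broken DNA, whereas most other family members attach single units or are thought to be inactive. PARP9 and PARP14 carry macrodomains, folds that bind ADP-ribose, and are known as interferon-induced genes. PARP9 forms a complex with the ubiquitin ligase DTX3L, which joins the DNA damage response and, in human cells, interferon signalling.

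Both macrodomain PARPs and the brighter DTX3L probe were at least 4-fold lower with rFSH, and PARP12 was 4.64-fold lower. The dimmer DTX3L probe was 1.25-fold lower and was not called. PARP1 was 1.97-fold lower, and PARP6 lay near 0. Values are log2 ratios of rFSH over control after background correction and loess, and each replicate value is the mean of its dye-swapped arrays. In the fit across all 34821 tested probes (limma, Benjamini-Hochberg adjusted p under 0.05), 6 of the 9 member probes were called lower and 0 higher, and 7 and 0 had an unadjusted p under 0.05 in those directions. Of all tested probes 3.37% were called lower, 6.34% were called in either direction, and 13.7% were lower at an unadjusted p under 0.05. The log2 ratio was below 0 on all 6 arrays for 8 of the 9 member probes and for 11.9% of all tested probes. Since this contrast chose the members, nothing is read from these shares. The median log2 ratio of the 8 genes was -1.49, beside 0.01 over 13130 tested named genes. A lower ratio in these bulk samples can reflect fewer cells that carry a transcript or less of it per cell, which cannot be told apart.

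**Figure D1:**
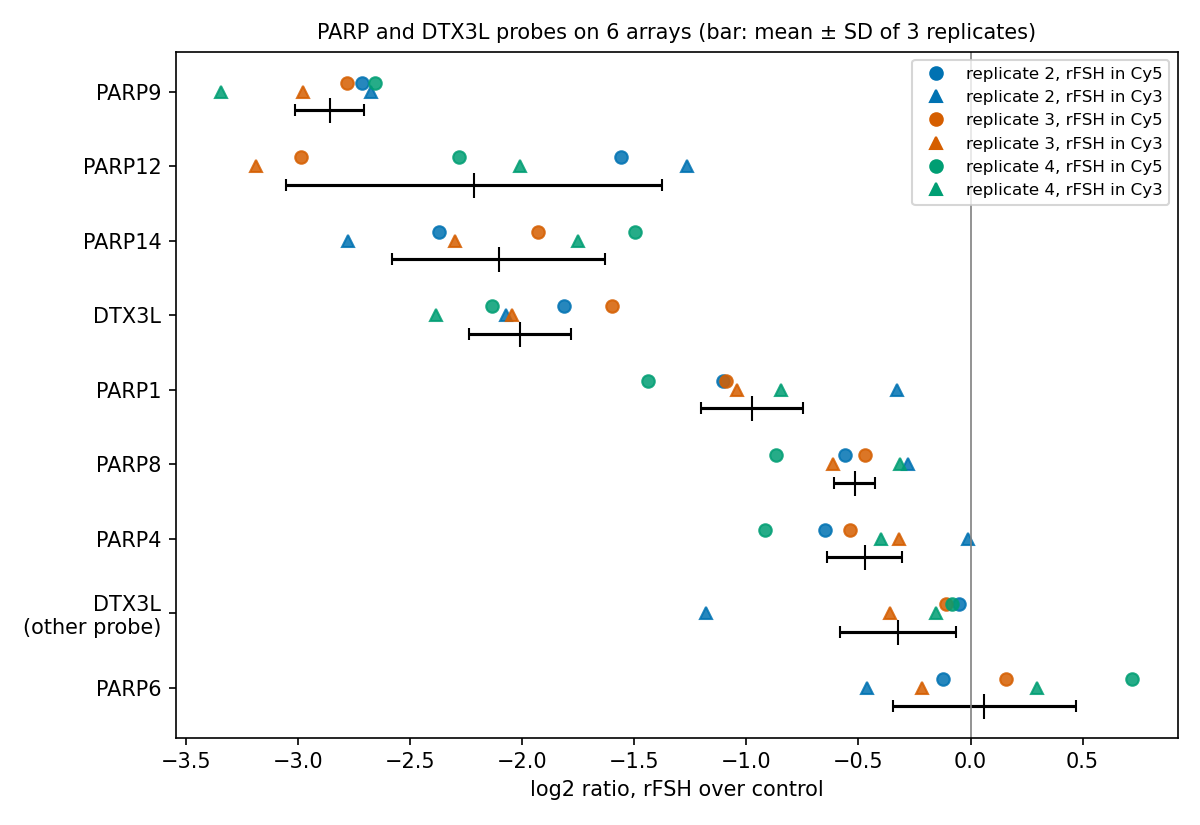
Log2 ratio of rFSH over control (x axis) for the 9 member probes on each array. Circles are arrays with rFSH in Cy5 and triangles arrays with rFSH in Cy3, colours are replicates, and the bars give the mean ± SD of 3 replicates. The probes of PARP9, PARP12, PARP14 and the brighter DTX3L probe lie at -1.26 or below on every array, and only PARP6 has arrays on both sides of 0.

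PARP9 had the lowest ratio of the members. Its raw spot intensity, before any normalisation, was 614, 687, 592, 686, 693 and 719.7 in the rFSH channel of the 6 arrays, against 4668, 3579, 5370.1, 4906, 4821 and 5767 in the control channel. The lowest control spot was thus far above the highest rFSH spot. The log2 ratios were -2.71 and -2.67 in replicate 2, -2.78 and -2.98 in replicate 3 and -2.66 and -3.34 in replicate 4, in each case with rFSH in Cy5 first and in Cy3 second. Their mean was -2.86 ± 0.15 (SD, n = 3 replicates), a 7.25-fold lower level with rFSH.

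PARP14, a large macrodomain PARP that attaches single ADP-ribose units, had a mean log2 ratio of -2.10 ± 0.48 (SD, n = 3), 4.30-fold lower with rFSH. By replicate the log2 ratio was -2.57, -2.11 and -1.62. The raw intensity was 338, 349, 276, 332, 261 and 330.4 with rFSH, against 1815, 1653, 1455, 1229, 766 and 698 in control cells. The control spots of replicate 4 were the dimmest of the controls, yet no rFSH spot reached them. The rFSH values stayed within a narrow band, but they were dim beside detection thresholds from 151 to 241 in the rFSH channel.

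DTX3L, the E3 ligase partner of PARP9, gave different values with its 2 probes. With the brighter probe the log2 ratio was -1.94 in replicate 2, -1.82 in replicate 3 and -2.26 in replicate 4, with a mean of -2.01 ± 0.23 (SD, n = 3), 4.02-fold lower with rFSH. Raw intensities of that probe were 351, 473, 358, 435, 209 and 266 with rFSH, against 1248, 1548, 1549, 1484, 888 and 799 in control cells, again without overlap. The other probe had a mean log2 ratio of -0.32 ± 0.26 (SD, n = 3) and was not called. It exceeded the detection threshold set by the negative control spots on 4 of 6 arrays with rFSH and 5 of 6 in control cells. Its raw intensities ran from 140.6 to 252 with rFSH and from 124 to 335 in control cells, beside detection thresholds between 135 and 264. Its ratio therefore rests on signal near the background, and the position of either probe in the transcript was not used here. Averaged over both probes, DTX3L had a log2 ratio of -1.17.

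PARP12 belongs to the zinc finger PARPs, has no macrodomain and is known as an antiviral gene. Its log2 ratio was -1.41 in replicate 2, -3.09 in replicate 3 and -2.15 in replicate 4, with a mean of -2.21 ± 0.84 (SD, n = 3), the widest spread of the members. Raw intensities were 7362, 7219.5, 3302, 2796, 2149 and 2739 with rFSH, against 23579, 16870, 29033, 25817, 11517 and 10369 in control cells. The rFSH spots of replicate 2 were the brightest of the rFSH spots, and the control spots of replicate 4 the dimmest of the controls, without overlap between the groups. The highest median pixel of this probe was 34089, below the ceiling of the scanner.

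PARP1, the main DNA break sensor of the family, had log2 ratios of -0.72, -1.07 and -1.14 in the 3 replicates, and a mean of -0.97 ± 0.23 (SD, n = 3). Its raw intensity was 4134, 4359.9, 4172, 4462, 4447 and 5139 with rFSH, against 10227, 5161, 10468, 9399.7, 13118 and 8969.8 in control cells. The groups did not overlap, but the control spot of replicate 2 with rFSH in Cy3 stood just above the highest rFSH spot, and the log2 ratio on that array was -0.33.

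PARP8, which attaches single ADP-ribose units, was called lower with a smaller ratio. Its mean log2 ratio was -0.52 ± 0.09 (SD, n = 3), with replicates between -0.59 and -0.42. PARP4, a component of the vault ribonucleoprotein particle, had a mean log2 ratio of -0.47 ± 0.17 (SD, n = 3) and was not called. The PARP4 probe exceeded the detection threshold on 2 of 6 arrays with rFSH and on 5 of 6 in control cells. PARP6, another enzyme that attaches single units, had log2 ratios of -0.29, -0.03 and 0.51, a mean of 0.06 ± 0.41 (SD, n = 3), and was not called. Its arrays were on both sides of 0. Raw intensities of PARP4, PARP6 and PARP8 overlapped between the groups. Those of PARP8, although it was called, ran from 240 to 491 with rFSH and from 353 to 671 in control cells. On the replicate 4 array with rFSH in Cy3, PARP8 read 419 with rFSH and 353 in control cells. The share of all tested probes without such overlap was not counted. Nothing is therefore read from the separation of the groups for PARP9, PARP14, PARP12, PARP1 and the brighter DTX3L probe.

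Ordered by the mean log2 ratio of the brightest probe, the genes ran from PARP9 through PARP12, PARP14 and DTX3L to PARP1, PARP8, PARP4 and PARP6. The replicate ranges of neighbours overlapped among the first 4 genes and between PARP8 and PARP4. They did not overlap between DTX3L and PARP1, separated by 0.68 on the log2 scale, between PARP1 and PARP8, separated by 0.12, or between PARP4 and PARP6, separated by only 0.04.

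Set against the other PARPs measured, namely PARP1, PARP4, PARP6, PARP8 and PARP12, the macrodomain PARPs PARP9 and PARP14 had the lower mean log2 ratio, -2.48 ± 0.16 against -0.82 ± 0.20 (SD, n = 3 replicates). The difference, macrodomain minus other, was -2.001 in replicate 2, -1.47 in replicate 3 and -1.51 in replicate 4. It was -1.41 on the arrays with rFSH in Cy5 and -1.90 on those with rFSH in Cy3. This is a description of 7 genes chosen on this contrast and was not tested. PARP12 was the exception, its mean lying between those of PARP9 and PARP14. Without PARP12, a choice made after seeing the values, the other PARPs averaged -0.48 ± 0.04 (SD, n = 3).

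The signal of each channel was then followed separately, as normalised log2 intensity averaged over both dyes. PARP9 was at 9.26, 9.39 and 9.18 with rFSH in replicates 2, 3 and 4, against 11.96, 12.27 and 12.18 in control cells. It was steady in both groups. PARP14 was at 8.11, 8.12 and 7.75 with rFSH, against 10.68, 10.23 and 9.37 in control cells. The control side of PARP14 varied more (SD 0.21 with rFSH and 0.66 in control cells, n = 3). Its rFSH side was dim, so nothing is read from the smaller spread. DTX3L was at 8.40, 8.62 and 7.35 with rFSH, against 10.34, 10.44 and 9.62 in control cells. Replicate 4 was thus low for DTX3L on both sides, and the ratio within a replicate spread less (SD 0.23) than the level of either side (SD 0.67 with rFSH and 0.45 in control cells, n = 3).

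**Figure D2:**
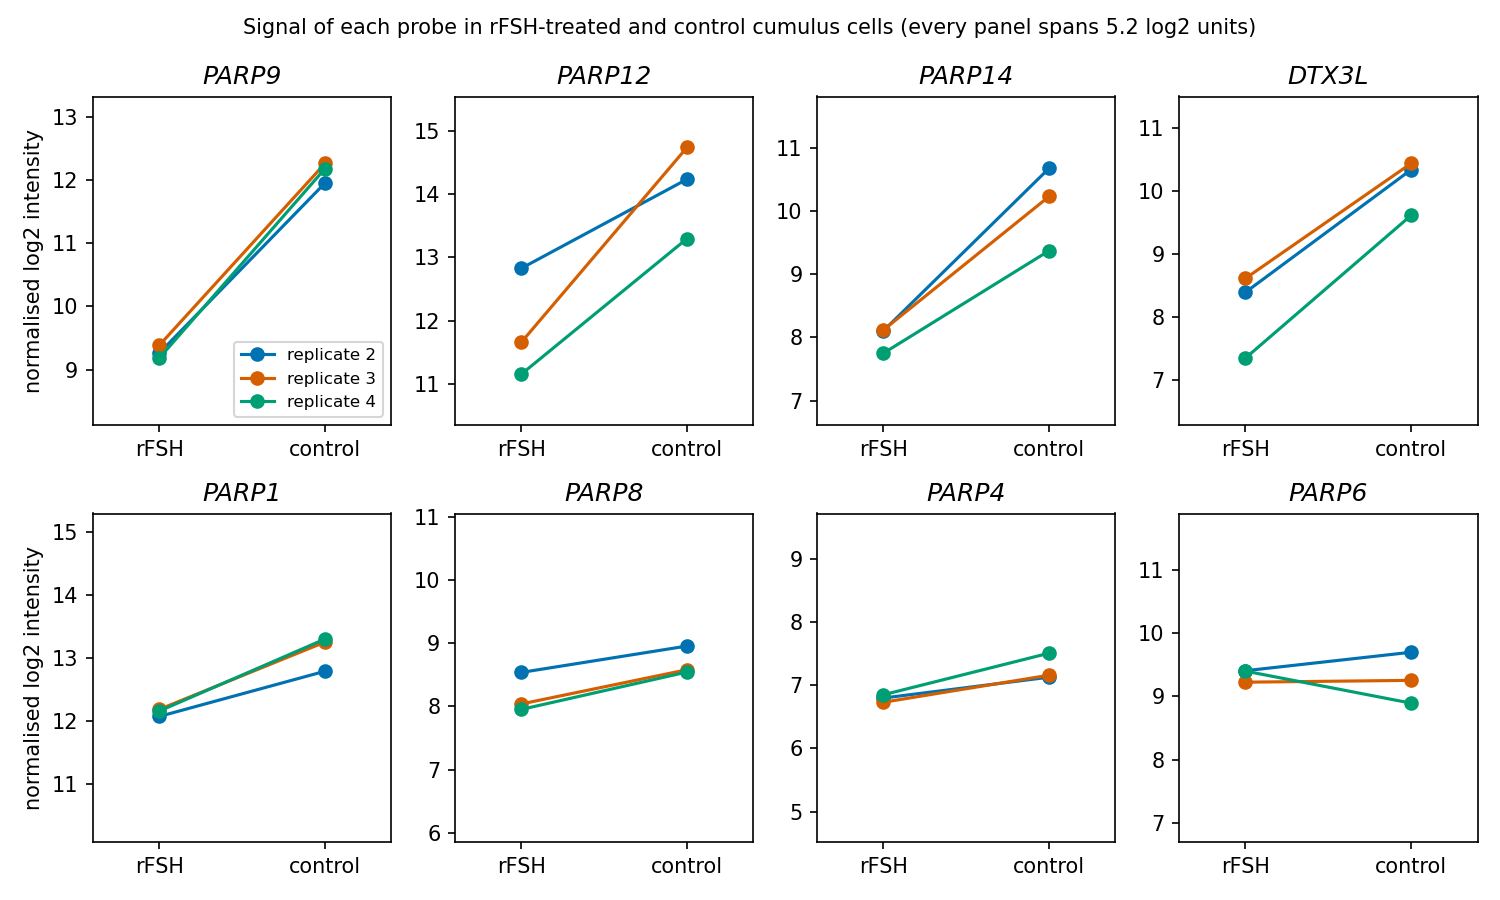
Normalised log2 intensity (y axis, 1 panel per gene, each panel spanning the same range) in rFSH-treated and control cells, with lines joining the values of a replicate. PARP9 keeps nearly the same level in all 3 replicates of each group, whereas PARP12 ranges from 11.15 to 12.83 with rFSH and from 13.30 to 14.74 in control cells.

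Whether the members differed between the dyes is a question that the choice of members did not use. The dye effect, log2 of Cy5 over Cy3 with the treatment cancelled within each replicate, was called for 12.7% of tested probes in limma and for 0 of the 9 member probes. An unadjusted p under 0.05 was found for 4 of the 9, beside 32.8% of tested probes. It was 0.14 ± 0.09 (SE) for PARP9 (limma adjusted p = 0.297), 0.17 ± 0.07 for PARP14 (adjusted p = 0.137) and -0.23 ± 0.08 for PARP4 (adjusted p = 0.0812). For PARP9 the dye effect was small beside the log2 ratio of -2.86, whereas for PARP4 it was closer in size to the ratio of -0.47.

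In the RefSeq gene order of the bovine assembly ARS-UCD2.0, PARP9, DTX3L and PARP14 lie next to each other, a feature that the choice of members did not use. Of the tested genes among the 6 before and the 8 after this trio, chosen for display after the ratios were seen, 0 of 10 were called in limma and 4 had an unadjusted p under 0.05. Over all tested named genes 8.73% were called and 30.9% had an unadjusted p under 0.05, so both counts are near the background. KPNA1, an importin that lies directly before PARP9, had a log2 ratio of 0.12 ± 0.51 (SD, n = 3). HSPBAP1, directly after PARP14, had one of -0.54 ± 0.21, and the 10 flanking genes ranged from -0.76 to 0.50. The mean ratios of the trio, by brightest probe, were all outside that range. The trio was chosen by this ratio and its flanking genes were not, so nothing is read from that contrast.

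**Figure D3:**
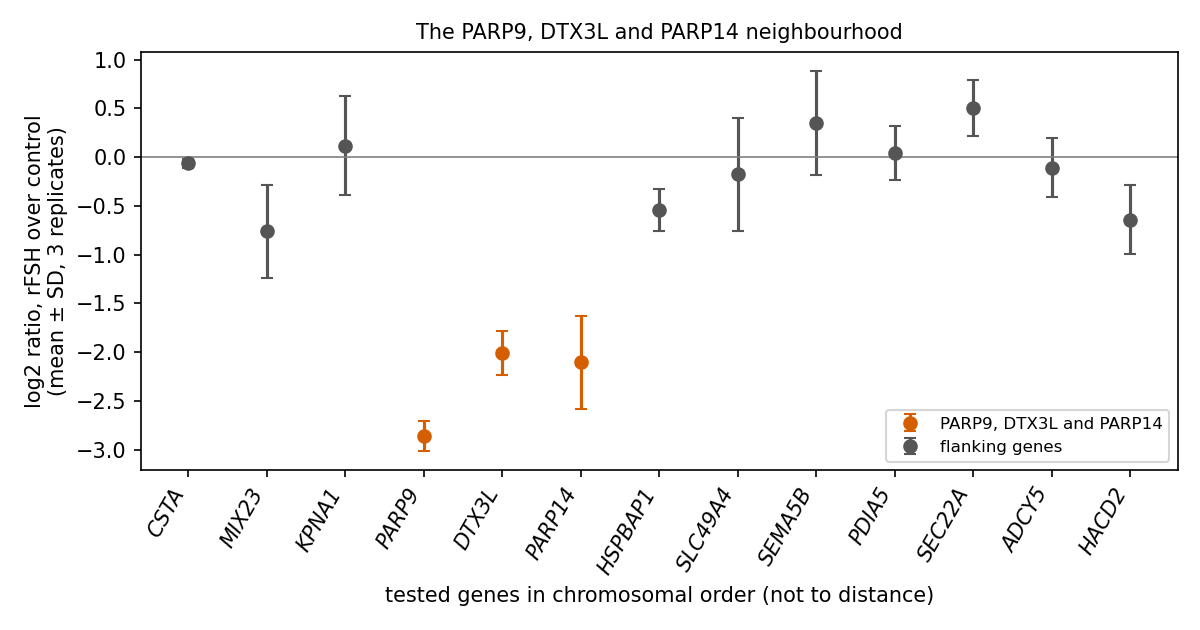
Log2 ratio of rFSH over control (y axis, mean ± SD, n = 3 replicates, brightest probe) for the tested genes around PARP9, DTX3L and PARP14, in chromosomal order without distances. The trio lies between -2.86 and -2.01, and the flanking genes lie between -0.76 and 0.50.

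Among 7 tested genes of the rest of the family, 2 were called lower and 0 higher in limma (0 higher at an unadjusted p under 0.05), beside 4.85% of all tested named genes called lower. PARP11, which attaches single ADP-ribose units, had a log2 ratio of -1.60 ± 0.40 (SD, n = 3) with its brightest probe, detected on all 6 arrays in both groups. Its other 2 tested probes stood at 0.05 and 0.01 and were not called. The first was detected on 6 arrays with rFSH and 3 in control cells, the second on 3 and 1. Their ratios thus rest in part on signal near the background. ZC3HAV1, the zinc finger antiviral protein that binds viral RNA, had one of -1.29 ± 0.30 with its brightest probe. Its other probes stood at -0.98, also called, and at -0.21, not called. TIPARP, a target of the aryl hydrocarbon receptor, had -0.45 ± 0.72 with its brightest probe, from -1.25 in replicate 2 to 0.13 in replicate 4. The tankyrases TNKS and TNKS2, which build ADP-ribose chains in telomere and Wnt biology, had log2 ratios of -0.06 ± 0.15 and 0.03 ± 0.05 and were not called. PARP15, a further macrodomain PARP, was not analysed here.

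Of the enzymes that remove or recycle ADP-ribose, 0 of 8 tested were called in limma by their brightest probe, and 5 had an unadjusted p under 0.05, 2 of them higher and 3 lower, beside 30.9% of named genes. NUDT9, which cleaves free ADP-ribose, stood at -0.52 ± 0.32 (SD, n = 3) with its brightest probe and was not called, while its other tested probe, at -1.26, was called lower. PARG, the main hydrolase of ADP-ribose chains, had a log2 ratio of -0.74 ± 0.30 (SD, n = 3), with all 6 arrays below 0, from -1.05 to -0.39. ADPRS, which removes ADP-ribose from serine, had one of 0.37 ± 0.15. Of the other Deltex ligases 0 of 3 were called in limma, and 0 had an unadjusted p under 0.05, with log2 ratios from -0.06 for DTX1 to 0.17 for DTX3. DTX3 was detected on all 6 arrays in both groups. DTX1 was detected on 4 arrays with rFSH and 3 in control cells, and DTX2 on 2 and 3, so their ratios rest on dim signal. Among 10 single-strand break repair genes 0 were called in limma and 3 had an unadjusted p under 0.05, a share near the 30.9% of all named genes. XRCC1, the scaffold that PARP1 brings to breaks, had a log2 ratio of -0.14 ± 0.29. In NAD synthesis 0 of 8 were called in limma and 3 had an unadjusted p under 0.05, again near that share. NAMPT, the rate-limiting enzyme of NAD salvage, had a log2 ratio of 1.22 ± 0.57, with replicates at 0.60, 1.73 and 1.34.

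Of 12 interferon signalling genes 2 were called lower and 0 higher, and 7 had an unadjusted p under 0.05 in limma, 2 of them higher. Over all tested named genes 4.85% were called lower and 30.9% had an unadjusted p under 0.05. STAT2, which carries type I interferon signals with IRF9, had a log2 ratio of -1.14 ± 0.30 (SD, n = 3), and the kinase JAK2 one of -0.88 ± 0.14. IRF9 stood at -0.40 ± 0.46 and IRF1, an interferon-induced transcription factor, at -0.42 ± 0.50. Both were below 0 in replicates 2 and 3 and slightly above it in replicate 4, at 0.13 and 0.06. The list's median was -0.34, beside 0.01 over all tested named genes.

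**Figure D4:**
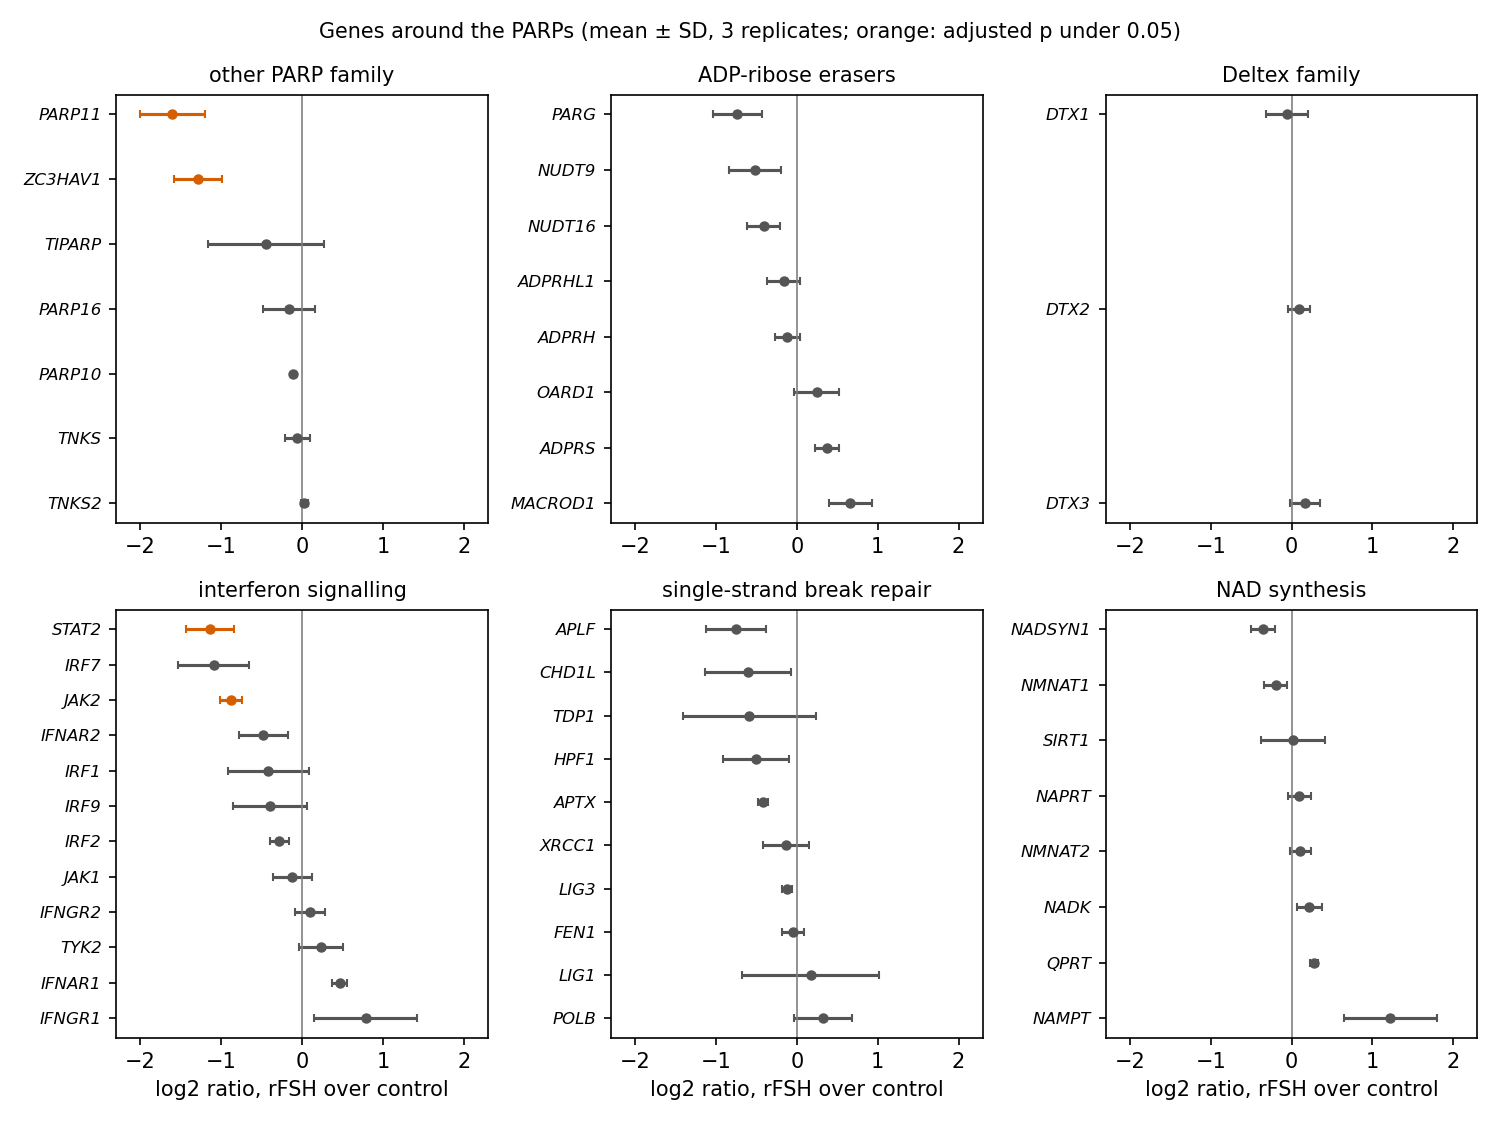
Log2 ratio of rFSH over control (x axis, mean ± SD, n = 3 replicates, brightest probe) for tested genes of 6 lists, with genes of adjusted p under 0.05 in orange. PARP11, ZC3HAV1, STAT2 and JAK2 are the genes called, all lower with rFSH, and NAMPT is the highest at 1.22.

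By the smallest root mean square difference of the log2 ratios over the 6 arrays, among 13055 named genes with 1 probe each, PARP9 was nearest to MSRB3 (0.381), MYOF (0.382) and TRIM6 (0.406). PARP14 was nearest to EIF4E (0.349), PLAC8 (0.421) and GSDMB (0.427). DTX3L was nearest to LOC512672 (0.151), NPY5R (0.208) and NFE2L3 (0.218). None of these neighbours was a member, and the measure reflects the size of a ratio as well as its pattern.

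The cell type was checked on markers. Of 12 granulosa and cumulus genes 11 were tested. INHA, INHBA, FST and AMH exceeded the detection threshold set by the negative controls on all 6 arrays in both groups, whereas AMHR2 did so on 0 arrays. FSHR, the FSH receptor, and GATM were called lower, at -0.83 ± 0.28 and -2.61 ± 0.66 (SD, n = 3), and 0 were called higher in limma (2 at an unadjusted p under 0.05). The summed raw intensity of that list ran from 127370 to 141550 with rFSH and from 113330 to 145000 in control cells. Of 10 tested theca and stroma genes, ACTA2 and MYH11 were called lower, at -1.29 ± 0.49 and -0.68 ± 0.17 (SD, n = 3), and the median log2 ratio was -0.03. MYH11 exceeded the detection threshold on 0 arrays with rFSH and 4 in control cells. The summed raw intensity of the theca and stroma list ran from 8393.5 to 20433 with rFSH and from 17976 to 30379 in control cells, so it moved the same way as the lower members, and its part in their ratios was not tested. Of 16 leukocyte genes 10 were tested and 0 were called in limma (1 at an unadjusted p under 0.05, higher), with a median log2 ratio of 0.07. CD68 exceeded the negative controls on all 6 arrays in both groups, with a log2 ratio of 1.30 ± 0.98 (SD, n = 3) and every array above 0. PTPRC was detected on 5 arrays in each group by its tested probe and on 0 by its other probe. CD3E and FCER1G were detected on 6 arrays with rFSH and 5 in control cells. CD8A, by its brightest probe, was detected on 6 arrays with rFSH and 4 in control cells. ITGAM, ITGB2, CD79A and TYROBP were not detected above the threshold on any array. The summed raw intensity of the list ran from 3019 to 7573 with rFSH and from 3016 to 5162 in control cells. Oocyte markers, 9 of which were tested with 0 called in limma and 0 at an unadjusted p under 0.05, averaged 1.05 in replicate 2, -1.50 in replicate 3 and 0.23 in replicate 4, and their summed raw intensity ran from 3304 to 9433 with rFSH and from 2648 to 10293 in control cells. Of 6 tested endothelium and red blood cell genes 0 were called in limma (1 at an unadjusted p under 0.05), with a median of 0.16. PARP12 had its weakest and strongest ratio in the same replicates, 2 and 3. The part of oocyte RNA in the spread of PARP12 was not tested.

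The calls of the members, like those of all probes, depended on the replicates included. Without replicate 2 or without replicate 3, 0 of all tested probes were called in limma, so 0 member probes were. An unadjusted p under 0.05 was found for 7 member probes in each case, beside 6874 and 7399 of all tested probes. Without replicate 4, PARP9, PARP14 and the brighter DTX3L probe were called, and PARP1, PARP8 and PARP12 were not. Over all probes 675 were then called lower and 510 higher. The mean log2 ratio without 1 replicate ran from -2.94 to -2.79 for PARP9, from -2.34 to -1.87 for PARP14, from -2.10 to -1.88 for DTX3L and from -2.62 to -1.78 for PARP12. Of 13 alternatives that kept all replicates, the call was lost under 0 for PARP9 and PARP14, 1 for DTX3L (unpaired), 1 for PARP1 (only arrays with rFSH in Cy3), 3 for PARP12 and 5 for PARP8. Those 3 for PARP12 were no background correction, plain subtraction of background and the unpaired fit, and PARP8 lost its call under the same 3, with only arrays with rFSH in Cy3 and with median pixels.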

How the data were processed

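Per the labels' protocols, RNA was amplified by T7 polymerase and labelled chemically with Cy3 and Cy5. Spot and local background intensity of both dyes are unnormalised in the scanner output, per the file headers. The authors also deposited normalized log2 ratios, which correlated with the unturned Cy5 over Cy3 ratios below (r from 0.976 to 0.992 per array) and served as an alternative. Their method is not given in these sources.

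With limma 3.58.1 (R 4.3.3), normexp with an offset of 50 removed the median local background from mean spot signals, and loess with a span of 0.3 followed, control spots having weight 0. Probes entered the test if, in either treatment, 3 or more arrays gave raw signal over a threshold, the average of 153 negative control spots plus 2 SD. Detection ran from 38.2% to 83.3% of probes per channel, lowest in the control channel of the replicate 2 array with rFSH in Cy3. Ratios were turned by the dye labels and averaged within replicates, and lmFit and eBayes compared the 3 replicate values with 0 (Benjamini-Hochberg, 0.05). Pairing is part of this test, as each array compares both treatments of 1 replicate. A gene was represented by its brightest tested probe, and symbols came from an old platform annotation. Members and lists were chosen with earlier results of these data known. All members are named, with context genes where called or singled out for their role. The fit was tested on simulated data.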

Additional observations from a re-analysis of the deposited data

Results flagged for a closer look

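The second DTX3L probe stood apart on 1 array. Its log2 ratio was -1.18 on the replicate 2 array that carried rFSH in Cy3, whereas the other arrays lay between -0.36 and -0.05 (Dixon's test over the 6 arrays). Its raw intensity on that array was 217 with rFSH and 335 in control cells, where the control channel had the lowest detection of the series. Of 9 member probes searched this was the only one. Chance alone marks about 1 in 20 such sets when the values are independent. The arrays here are dye-swapped pairs, so that rate may not hold.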

How the results depend on the processing

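The difference between macrodomain and other PARPs stayed between -1.90 and -1.41 under every alternative run, and neither the called members nor PARP11, ZC3HAV1, STAT2 and JAK2 changed sign. With DTX3L counted among the other PARPs it was -1.46. The count of higher and lower calls over all probes was 1035 and 1173. It became 570 and 482 without background correction, 2674 and 3381 when all 6 arrays entered with a dye term and replicate block, and 468 and 558 unpaired, with no replicate block. Arrays with rFSH in Cy5 alone gave 1565 and 1833, and those with rFSH in Cy3 alone 1581 higher. Lower calls alone moved to 714 with plain subtraction, 1863 with offset 0 and 1848 with median centring, where higher calls numbered 777. Unpaired, 3 member probes were called lower, against 6. Leaving out 1 replicate gave 0 to 510 higher, 0 to 675 lower and 0 to 3 member calls, with fewer samples. Calls of a dye effect, 1976 brighter in Cy5 and 2428 in Cy3, became 1082 and 1358 without background correction, 3365 in Cy5 without a filter, and 0 to 4144 and 0 to 3999 without 1 replicate. Unless stated, the cause was not tested. Without the replicate 2 array of lowest detection, an alternative chosen after seeing the data, 7 member probes were called lower. Over all probes the calls rose as well, to 1186 higher and 1638 lower. Dim signal limits PARP4, the second DTX3L probe, and the rFSH side of PARP14 and of the brighter DTX3L probe. The log2 ratio of PARP14 was -1.86 without background correction and -2.34 with offset 0. That of the brighter DTX3L probe was -1.78 and -2.24.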

Other observations

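The WWE domain, a fold that binds ADP-ribose chains or their units, is shared by PARP11, PARP12, PARP14, ZC3HAV1 and TIPARP. This grouping was made after the ratios were seen and has no test. With the brightest probe of each gene, 4 of the 5 were called lower with rFSH and TIPARP was not, beside 4.85% of all tested named genes called lower. PARP12 and PARP14 are members chosen by this same contrast, so nothing is read from that count. Other tested probes were not called at 0.05 and 0.01 for PARP11 and at -0.21 for ZC3HAV1. None of these probes was detected on all 6 arrays of both groups. PARP10 and PARP16, family members outside that group, had log2 ratios of -0.11 ± 0.02 and -0.16 ± 0.32 (SD, n = 3) and were not called. PARP4, PARP6, TNKS and TNKS2, also outside it, were not called either. However, PARP9, PARP1 and PARP8 are outside it too and were called lower, at -2.86, -0.97 and -0.52. Among interferon signalling genes, the regulator IRF7 stood at -1.10 ± 0.44 (limma adjusted p = 0.0529), below 0 on all 6 arrays, and the receptor IFNGR1 at 0.79 ± 0.64, above 0 on all 6.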
